A study of Homo sapiens with 36 samples.

Results

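The genes described here are 37 genes that feed, run and drain the tricarboxylic acid (TCA) cycle, taken by symbol from a table of 57820 genes: the pyruvate dehydrogenase complex with its kinases and phosphatases, the pyruvate carrier, the enzymes that interconvert pyruvate, malate and oxaloacetate, the cycle itself without the isocitrate dehydrogenases, the enzymes of aspartate, glutamate and asparagine exchange, and ACLY. Each symbol matched 1 gene of the table. Their expression was measured by RNA-seq in A2780 cells, a human ovarian cancer line, in 12 conditions with 3 libraries each. The lines were the parental, platinum-sensitive cells (wt), their cisplatin-resistant derivative (cis), and cis cells that had resumed growth after serine/glycine withdrawal (cis SSP). Each line was kept in complete medium or in medium lacking serine and glycine (-SG), and in each medium without or with carboplatin (carbo), so that the groups are wt, wt carbo, wt -SG and wt -SG carbo, and likewise for cis and cis SSP. All 3 lines descend from 1 cell line. The sample labels write the carboplatin dose as 6 M, other experiments on these cells used micromolar doses, and the dose given to the sequenced cells is not settled by the sources used here. The study's legends describe the libraries of a condition as technical replicates, so p-values here measure only the spread between such libraries.

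In respiring cells, pyruvate enters mitochondria through the carrier MPC1/MPC2, is turned into acetyl-CoA by the pyruvate dehydrogenase complex, and is oxidised in the TCA cycle. Pyruvate dehydrogenase kinases switch the complex off and the phosphatases switch it on. Carbon is replaced in the cycle by pyruvate carboxylase (PC) and by glutamine through GLUD1 and the aminotransferases, and leaves it through PCK2, which makes phosphoenolpyruvate from oxaloacetate in mitochondria, through the malic enzymes, which return malate to pyruvate, and as citrate, which ACLY splits into cytosolic acetyl-CoA. ASNS makes asparagine from aspartate and glutamine. ASNS and PCK2 are textbook targets of ATF4, the transcription factor of the amino acid response, which binds with a C/EBP partner to a DNA element of the form TGATGNAA.

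The upstream sequences of 4 of these genes are shown. ME1 and PC rose most of the 37 in wt cells without serine and glycine. ASNS was chosen by name and not by its rise, which was smaller than that of PCK2 (log2 fold change 0.48 against 0.65), whose sequence is not shown. GOT1 was the other gene of the 37 whose upstream sequence holds the motif TGATGNAA. GOT1 was added after its sequence and values had been seen. The sequences are the 250 bases before an annotated start, on the strand of the gene, from RefSeq on GRCh38.p14, a later build than the GRCh37.p13 on which the reads were counted. The ASNS sequence lies at chr7:97872409-97872658, GOT1 at chr10:99430625-99430874, ME1 at chr6:83431052-83431301 and PC at chr11:66958384-66958633, all on the minus strand, and capitals mark the motif on either strand.
ASNS: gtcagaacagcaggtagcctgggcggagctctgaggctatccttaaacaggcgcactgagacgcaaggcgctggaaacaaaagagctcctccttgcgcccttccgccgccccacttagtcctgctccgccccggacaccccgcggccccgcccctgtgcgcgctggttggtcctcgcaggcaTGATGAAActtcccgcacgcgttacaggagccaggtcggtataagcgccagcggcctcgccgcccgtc
GOT1: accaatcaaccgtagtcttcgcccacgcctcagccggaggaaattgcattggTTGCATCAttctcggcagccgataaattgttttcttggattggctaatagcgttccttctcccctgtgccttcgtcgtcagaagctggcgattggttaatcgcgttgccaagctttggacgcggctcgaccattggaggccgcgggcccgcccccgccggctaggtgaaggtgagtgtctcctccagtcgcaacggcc
ME1: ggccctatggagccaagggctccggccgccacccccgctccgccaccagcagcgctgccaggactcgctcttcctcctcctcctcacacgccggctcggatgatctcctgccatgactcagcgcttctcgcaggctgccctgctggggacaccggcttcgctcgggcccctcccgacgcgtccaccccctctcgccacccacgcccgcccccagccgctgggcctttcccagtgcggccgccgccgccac
PC: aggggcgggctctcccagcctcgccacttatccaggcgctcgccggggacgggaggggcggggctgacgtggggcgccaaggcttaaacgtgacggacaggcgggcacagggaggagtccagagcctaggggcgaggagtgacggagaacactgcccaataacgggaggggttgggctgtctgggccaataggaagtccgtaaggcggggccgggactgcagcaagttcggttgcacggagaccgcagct
Sequences were found for 34 of the 37 genes (48 start sites), and 2 of the genes had a match. In ASNS the match was TGATGAAA on the strand of the gene, 68 to 61 bases before the start, and in the other of its 2 listed starts there was none. In GOT1 it lay on the opposite strand (read here as TTGCATCA), 198 to 191 bases before the start. Of all 35116 upstream sequences in the RefSeq table, 3.14% held the motif on either strand. No match was found before the single ME1 start, before any of the 3 PC starts or before PCK2. A match is a string of letters and was not tested for binding.

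Total counts on genes were 13074937 to 20441582 per library (median 17663485.5). Of the 37 genes, 34 passed edgeR's filter on low counts in every comparison of their lines, ME1 passed it only where wt libraries were included, and PDK4 and ME3 passed it nowhere. PDK4, a kinase of the pyruvate dehydrogenase complex, had at most 2 counts in any library, and ME3, a mitochondrial malic enzyme, at most 8. Of the markers of carcinoma cells, PAX8 was at most 0.561 and MUC16 at most 0.113 CPM in the mean of any condition (CPM, read counts scaled to the size of each library), EPCAM at most 1.64, WT1 at most 1.21 and KRT8 at most 6.02. KRT18, a keratin, was at 0.426 to 6.86 CPM in wt, 17.3 to 43.1 in cis and 10.4 to 15.7 in cis SSP conditions, and VIM was at 1580 to 4108 CPM. Reads on pseudogenes amounted to 1351% of the own counts of KRT8 and 18.1% of those of KRT18. How reads were split between them was not tested, so the low KRT8 values do not show that KRT8 was absent. The leukocyte markers PTPRC, CD3E and CD68 and the endothelial marker VWF were at most 0.260 CPM, and COL1A1, a collagen gene of mesenchymal cells, was at 98.3 to 932.6 CPM in wt, 1.83 to 4.07 in cis and 9.26 to 17.7 in cis SSP conditions. In bulk RNA, fewer expressing cells and less RNA per cell cannot be told apart. Library 1 of cis SSP and library 2 of cis SSP -SG stood apart: the median absolute log2 deviation of their genes from the mean of the other libraries of their condition was 0.435 and 0.44. It was 0.0456 to 0.237 in the other 34 libraries, and at most 0.157 outside cis SSP and cis SSP -SG. The deviation of both followed transcript length (Spearman rho -0.74 and -0.73 over genes, short transcripts high). Library 2 of wt -SG carbo had a like relation to length (rho -0.71) with a smaller deviation (0.157). Where results rest on these libraries, the counts of called genes among the 37 and values of several named genes are given with and without them. Values of single pathway genes outside the 37 are given with all libraries only.

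In untreated wt cells ME3 and PDK4 were at 0, and over the other 35 genes levels per kilobase of the annotated transcript spanned from 218.7 CPM per kb for MDH1, the cytosolic malate dehydrogenase of the malate-aspartate shuttle, to 3.72 for PDK1. MDH1 was followed by SDHB (148.1 CPM per kb), ASNS (144.7), PCK2 (104.0) and GOT2 (103.8), the last 2 at nearly the same level. The genes counted as the cycle were spread from SDHB down to ACO1 (12.4 CPM per kb), with FH at 76.1, CS at 70.9 and OGDH at 32.3. Next to PDK1 at the lower end were PC (3.84), PDP1 (4.42), PDK2 (4.49), MPC1 (4.74) and PDK3 (6.83). PDK1 is annotated with a transcript of 14072 bases, so its level per kb depends heavily on that model.

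Across the 12 conditions the members moved by very different amounts. The mean of PCK2 ranged over 6.86-fold, from 95.7 CPM in wt -SG carbo to 656.8 CPM in cis SSP -SG. The cis SSP -SG libraries had 573.4, 808.2 and 588.8 CPM, and library 2 stood apart. PC ranged over 5.86-fold, from 4.59 CPM in cis -SG carbo to 26.9 CPM in wt -SG, MPC1 over 5.04-fold, SUCLA2 over 4.08-fold and ASNS over 3.82-fold. The highest mean of MPC1 was that of cis SSP, at 11.95, 7.42 and 7.17 CPM, where library 1 stood apart. The steadiest genes were DLST, the core of the oxoglutarate dehydrogenase complex, at 1.39-fold (115.9 to 161.5 CPM), and GOT2, the mitochondrial aspartate aminotransferase, at 1.54-fold (219.7 to 338.6 CPM). Of the 13 genes counted as the cycle, among them ACO1, the cytosolic aconitase, 9 had their lowest mean in cis -SG carbo.

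**Figure D1:**
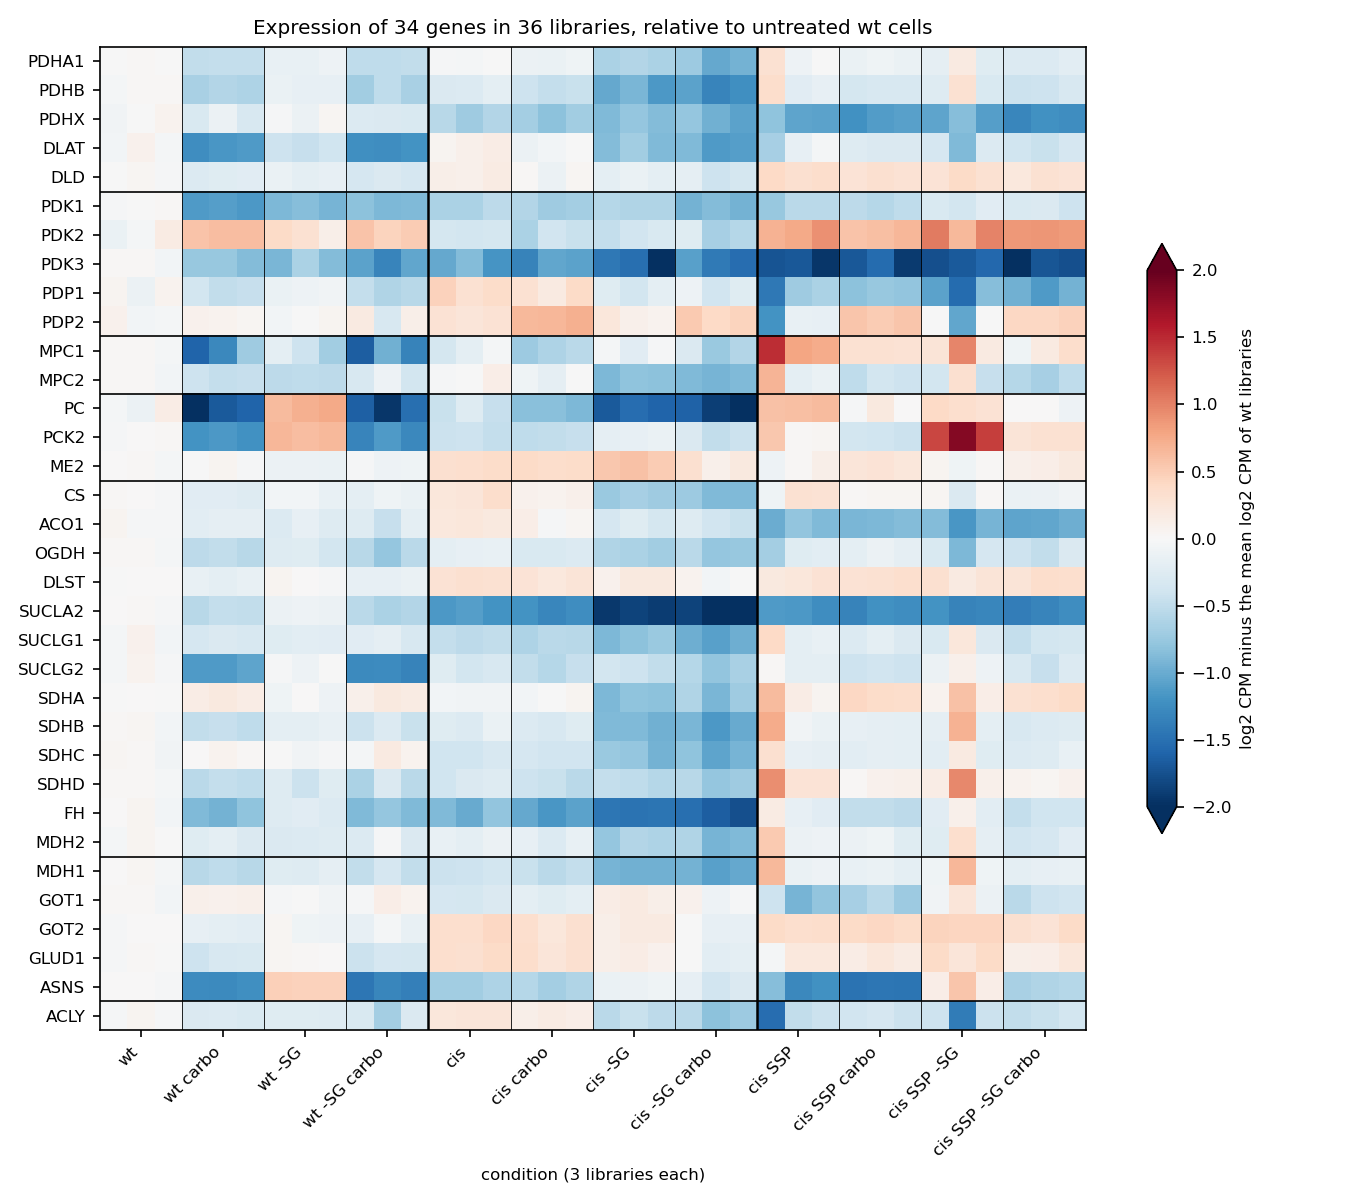
Log2 CPM of 34 genes (rows, grouped by role, from the pyruvate dehydrogenase complex to ACLY) in the 36 libraries (columns, 3 per condition), minus the mean log2 CPM of the wt libraries of that gene; ME1, ME3 and PDK4 are left out because they have libraries at 0. Most cycle genes are below the wt level (blue) in cis -SG and cis -SG carbo, and library 1 of cis SSP and library 2 of cis SSP -SG differ from their neighbours in many genes.

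In untreated resistant cells most of these genes were expressed at lower levels than in sensitive cells, and 1 was not detected. Between cis and wt cells, 31 of the 35 genes tested had an adjusted p under 0.05 (called hereafter), 10 higher and 21 lower in cis, with a median log2 fold change of -0.25 against -0.004 over all genes. Of all 14431 genes tested in this comparison 78.5% were called, 39.4% higher and 39.1% lower, so that the called genes were split evenly in the background and lay on the lower side in 21 of 31 here. Of the 13 cycle genes, 10 were lower and 3 (CS, ACO1 and DLST) higher. Over the 35 genes the difference had a Spearman rho of 0.43 with transcript length, against 0.025 over all genes, and the part of length in it was not tested.

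ME1, the cytosolic malic enzyme that makes NADPH, is at chr6:83920121-84140770 (GRCh37, minus strand). It had 24.7, 26.1 and 25.6 CPM in the wt libraries and 0 counts in each of the 3 cis libraries, so that the groups were far apart. Set against a floor of 3 counts per library (0.176 CPM), it was at least 144-fold lower in cis. It also had no count in any other cis library and at most 1 in a cis SSP library.

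SUCLA2, a subunit of the ATP-forming succinyl-CoA synthetase of the cycle, had 77.9, 78.7 and 76.0 CPM in wt and 35.1, 36.2 and 33.8 CPM in cis. The groups did not overlap, and the log2 fold change was -1.18 (SE 0.044, edgeR adjusted p = 2.08e-27). The gene lies on chromosome 13 (48319871 to 48612104), and of the 51 tested genes within 5 Mb on either side 45 were lower in cis, with a median log2 fold change of -0.97. Its neighbours thus moved almost as far as SUCLA2 itself, and their part in its difference was not tested. FH, fumarase, had 136.3, 140.7 and 131.7 CPM in wt against 74.2, 67.5 and 79.2 in cis (log2 fold change -0.92, SE 0.040, adjusted p = 7.92e-18). The median of its 22 tested neighbours was -0.06.

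Among the regulators of pyruvate oxidation, the kinases PDK3 (log2 fold change -1.05, SE 0.102, edgeR adjusted p = 1.26e-12), PDK1 (-0.63, adjusted p = 4.64e-16) and PDK2 (-0.40) were lower in cis. PDHX, which tethers the last enzyme of the complex, was lower too (-0.66, adjusted p = 1.2e-16). Both phosphatases were higher: PDP1 had 19.32, 17.03 and 19.41 CPM in wt and 25.54, 23 and 23.91 in cis (0.34, SE 0.068, adjusted p = 1.97e-05), and PDP2 differed by 0.24. PDP1 is on chromosome 8, where 31 of its 42 neighbours were also higher, with a median of 0.61. Of the 97 neighbours of PDP2, 51 were higher and 23 lower, with a median of 0.18. The part of the neighbours in these differences was not tested. The carrier genes MPC1 (-0.21, adjusted p = 0.169) and MPC2 (0.003, adjusted p = 0.953) did not pass the test.

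The genes of amino acid exchange were split. ASNS had 348.3, 348.9 and 338.4 CPM in wt against 213.9, 213.1 and 224.6 in cis, with no overlap (log2 fold change -0.70, SE 0.025, edgeR adjusted p = 5.8e-28). PCK2 (-0.47, SE 0.027, adjusted p = 3.26e-20) and PC (-0.42, SE 0.083, adjusted p = 1.9e-05) were lower too. The mitochondrial enzymes GOT2 (0.33) and GLUD1 (0.31), which hand amino groups to and from glutamate, were higher. GOT1 (-0.35), the cytosolic counterpart of GOT2, was lower, and so were both malate dehydrogenases, the cytosolic MDH1 (-0.44) and the mitochondrial MDH2 (-0.19). ME2, the mitochondrial malic enzyme and the only one well expressed in cis cells, was higher (0.31, SE 0.029, adjusted p = 4.06e-13).

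**Figure D2:**
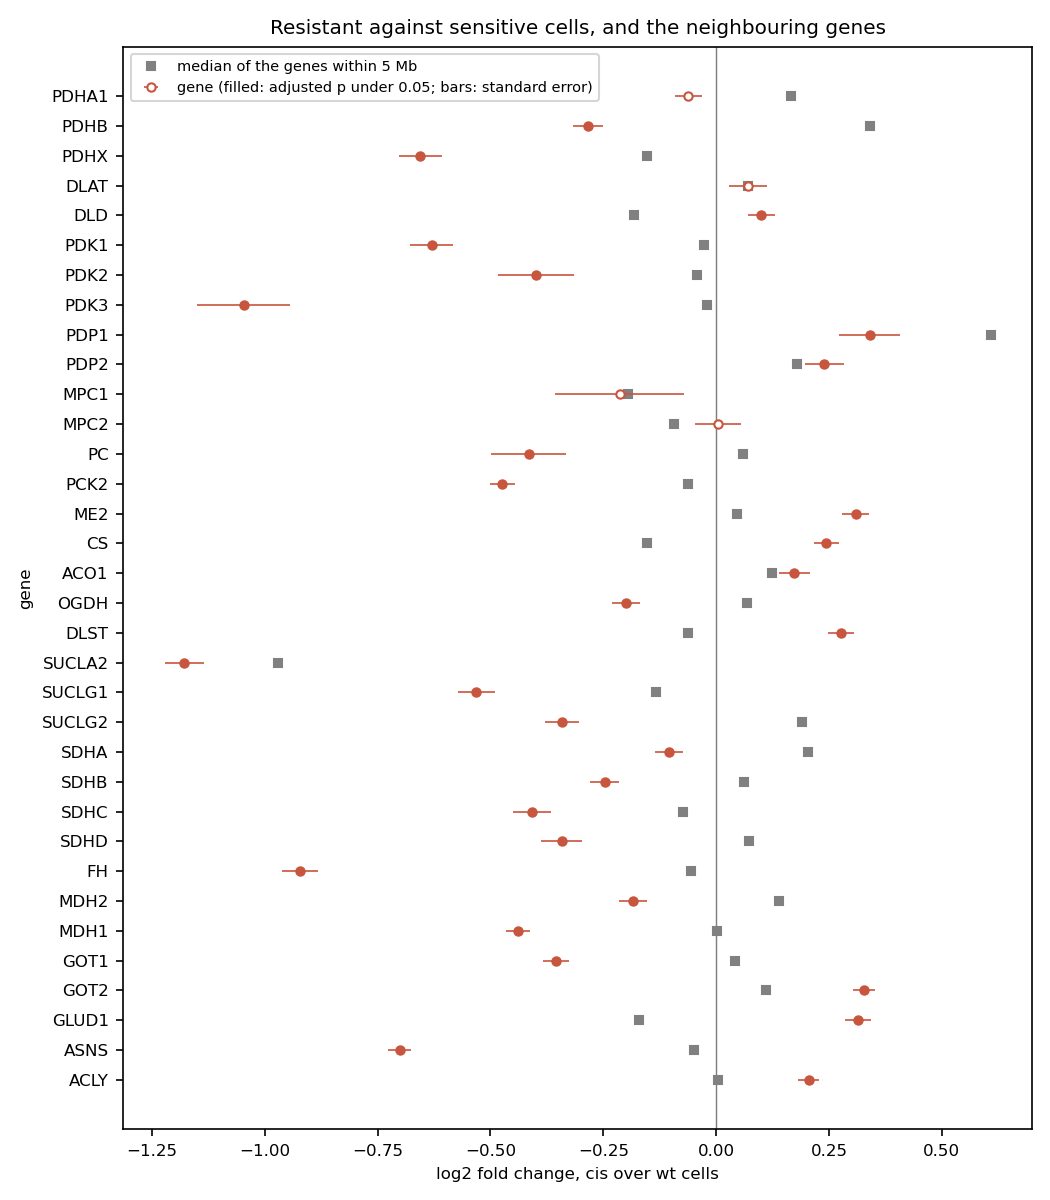
Log2 fold change of 34 genes in cis over wt cells (points with standard error, filled where the adjusted p is under 0.05) and the median log2 fold change of all tested genes within 5 Mb of each (grey squares). SUCLA2 (-1.18) sits beside its neighbours' median (-0.97), whereas FH (-0.92) sits far from its own (-0.06).

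The 27 other genes of the pathway, are transporters, assembly factors, lipoylation enzymes and isoenzymes. Of 24 tested, 9 were higher in cis and 12 lower. ACSS1, which activates acetate in mitochondria, had 7, 8 and 8 counts in wt and 325, 383 and 384 in cis (log2 fold change 5.62, SE 0.153, edgeR adjusted p = 9.43e-33). GLUL, which makes glutamine from glutamate, went the other way, from 160, 160 and 185 counts in wt to 13, 14 and 12 in cis (-3.61, SE 0.174, adjusted p = 3.74e-23). The untreated wt and cis libraries also serve as controls in the comparisons that follow, so these are not independent of each other.

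In sensitive cells carboplatin lowered nearly the whole group of genes. In wt cells 29 genes fell and 3 rose among 35 tested, with a median log2 fold change of -0.43 against -0.0007 over all genes. Of the 14639 genes tested, 77.8% were called, 38.9% higher and 39.0% lower. All 5 genes of the pyruvate dehydrogenase complex, both carrier genes and 11 of the 13 cycle genes fell.

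PC fell furthest. It had 16.1, 15.2 and 18.3 CPM in untreated wt and 4.12, 5.13 and 5.42 CPM with carboplatin, with no overlap (log2 fold change -1.75, SE 0.098, edgeR adjusted p = 7.89e-59). PC lies at chr11:66615888-66725857 (GRCh37, minus strand), and is overlapped by LRFN4 on the opposite strand. The strand setting of the read counting is not given in the sources used here, so reads of such pairs cannot be told apart, which also holds for NRL beside PCK2. ASNS fell from 348.3, 348.9 and 338.4 CPM to 144.0, 142.3 and 147.4 (-1.24, SE 0.023, adjusted p = 2.68e-265), and PCK2 from 222.7, 227.7 and 229.3 CPM to 98.9, 102.1 and 97.8 (-1.17, SE 0.027, adjusted p = 1.63e-214). In both genes every treated library lay far below every untreated one.

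DLAT, the acetyl-transferring core of pyruvate dehydrogenase, fell by 1.16 on the log2 scale (SE 0.049, edgeR adjusted p = 1.68e-94), from 55.4, 60.9 and 55.8 CPM to 24.21, 25.65 and 26.03. PDK1 (-1.11), MPC1 (-1.14) and SUCLG2, the subunit of GTP-forming succinyl-CoA synthetase (-1.09), were also among the 7 largest falls. MPC1 rested on few reads, with 1.41, 1.75 and 2.62 CPM after carboplatin. The rises were PDK2 (0.61, SE 0.069, adjusted p = 1.33e-17), SDHA (0.18, adjusted p = 3.23e-10) and GOT1 (0.11, adjusted p = 8.83e-06). Reads on pseudogenes of SDHA amounted to 17.8% of its own counts, and how reads were split between them was not tested. SDHB and SDHD, of the same enzyme, fell by 0.47 and 0.49 on the log2 scale.

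In resistant cells the same treatment left most of these genes within a narrow range. In cis cells 3 genes rose and 10 fell among 34 tested, with a median log2 fold change of -0.06. Of 13458 genes 20.1% were called, 9.27% higher and 10.8% lower. PC fell from 12.14, 13.85 and 12.01 CPM to 9.19, 9.27 and 8.85 (log2 fold change -0.45, SE 0.093, edgeR adjusted p = 6.99e-04), and the other falls were between -0.17 and -0.07. PDP2, the phosphatase, rose from 67.7, 65.8 and 68.2 to 86.8, 88.0 and 91.3 CPM (0.43, SE 0.039, adjusted p = 2.54e-09), and GOT1 rose by 0.14 and SDHA by 0.10 (adjusted p = 0.234 for SDHA by DESeq2). ASNS (0.08, adjusted p = 0.0646) and PCK2 (-0.02, adjusted p = 0.711) did not pass the test. The count of 13 genes fell to 8 when library 2 or 3 of cis or library 3 of cis carbo was left out. Over all genes 2110 of 13591, 2429 of 13609 and 1755 of 13717 were then called.

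The test of the difference between both responses called 27 of 35 genes, 26 of them with a response more positive in cis and 1 more negative, whereas 57.6% of 15300 genes were called, 30.3% more positive and 27.2% more negative. The largest differences were those of ASNS (1.32, SE 0.038, edgeR adjusted p = 3.38e-37), PC (1.30, SE 0.146, adjusted p = 1.59e-11) and PCK2 (1.16, SE 0.041, adjusted p = 6.31e-33), in log2 units of cis response minus wt response. PDK2 was the opposite case (-0.71, SE 0.117, adjusted p = 4.2e-07), at 0.61 in wt and -0.11 in cis cells (adjusted p = 0.443).

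**Figure D3:**
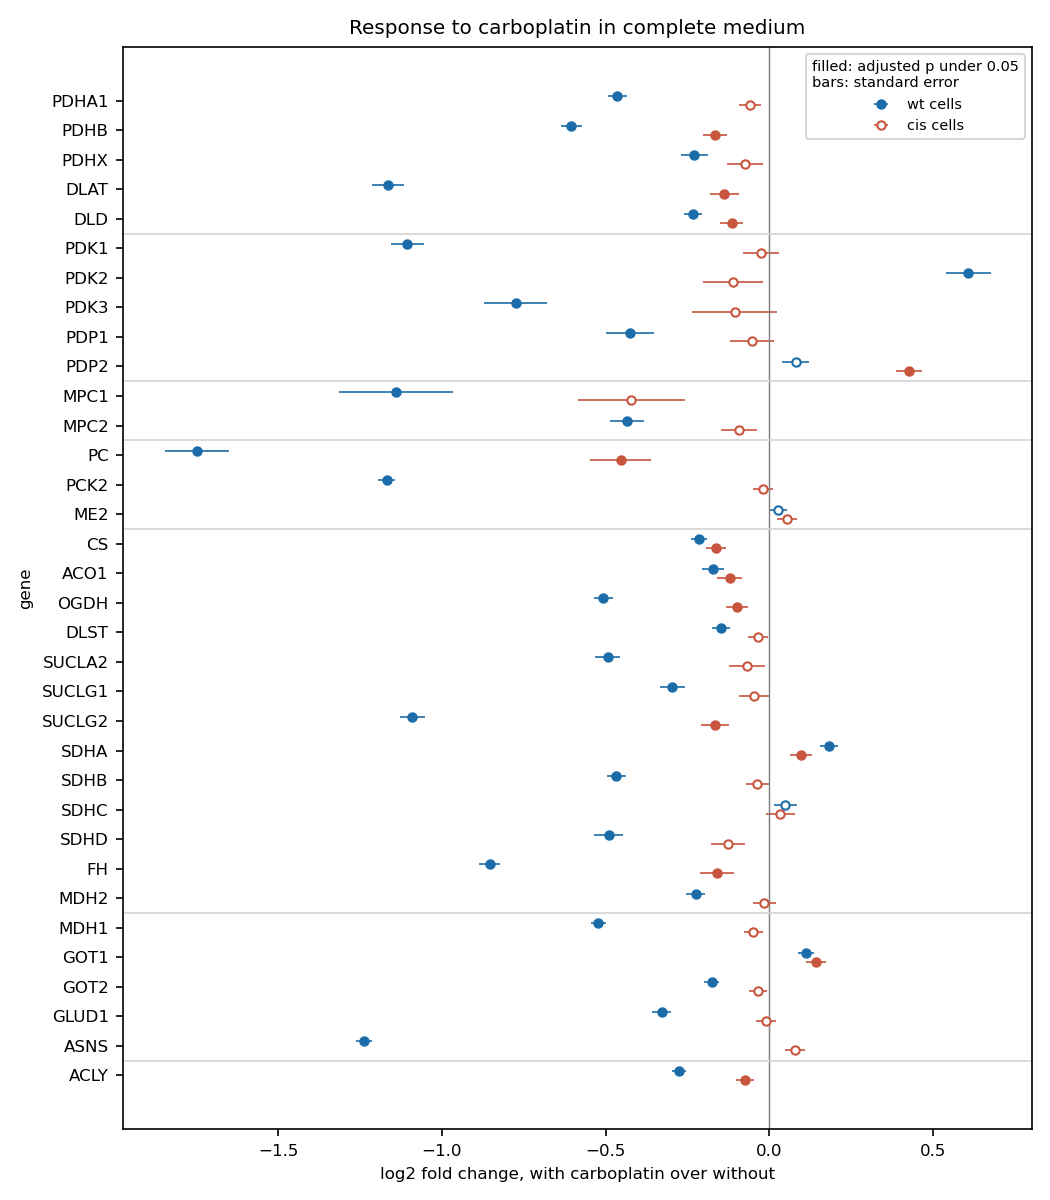
Log2 fold change with carboplatin over without, in complete medium, for 34 genes in wt (blue) and cis (red) cells; bars are standard errors and filled points have an adjusted p under 0.05. In wt cells PC, ASNS, PCK2, DLAT, MPC1, PDK1 and SUCLG2 lie below -1, and in cis cells the lowest is PC at -0.45.

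Among the other pathway genes, 15 of 24 tested fell in wt cells under carboplatin and 6 rose. ACSS2, the cytosolic acetyl-CoA synthetase, fell by 1.43 on the log2 scale (SE 0.042, edgeR adjusted p = 8.68e-155), and GLUL and GLS2, glutamine synthetase and a glutaminase, each rose by 1.06. In cis cells 6 fell. The difference between both responses was called in 21 of 24, 16 more positive in cis and 5 more negative.

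In cis SSP cells PC was the only 1 of 34 genes called after carboplatin, from 24.7, 25.1 and 25.5 CPM to 16.3, 18.9 and 16.5 (log2 fold change -0.55, SE 0.100, edgeR adjusted p = 0.046). Of 13885 genes 2.72% were called, 1.97% higher and 0.749% lower. PCK2 had 329.4, 229.5 and 232.0 CPM before and 175.9, 171.1 and 168.6 CPM after (-0.62, adjusted p = 0.128), and ASNS 191.5, 141.0 and 148.7 before and 123.9, 126.2 and 125.5 after (-0.36, adjusted p = 0.26). The first untreated library is the one that stood apart. Without it 17 genes were called, 5 higher and 12 lower, and 41.2% of all genes. When any of the other 5 libraries was left out, none of the 34 was called, and over all 14130 to 14179 genes 9 to 65 were. Without the first untreated library PCK2 fell by 0.43 and ASNS by 0.21 on the log2 scale (adjusted p = 2.79e-12 and 5.41e-06), and PDP2 rose by 0.70 (9.11e-13). Across the 34 genes the change followed transcript length (Spearman rho 0.62, against 0.26 without that library), as did that of all genes (0.37 and -0.059). In the list of other pathway genes ACSS2 alone was called, at -0.49.

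**Figure D4:**
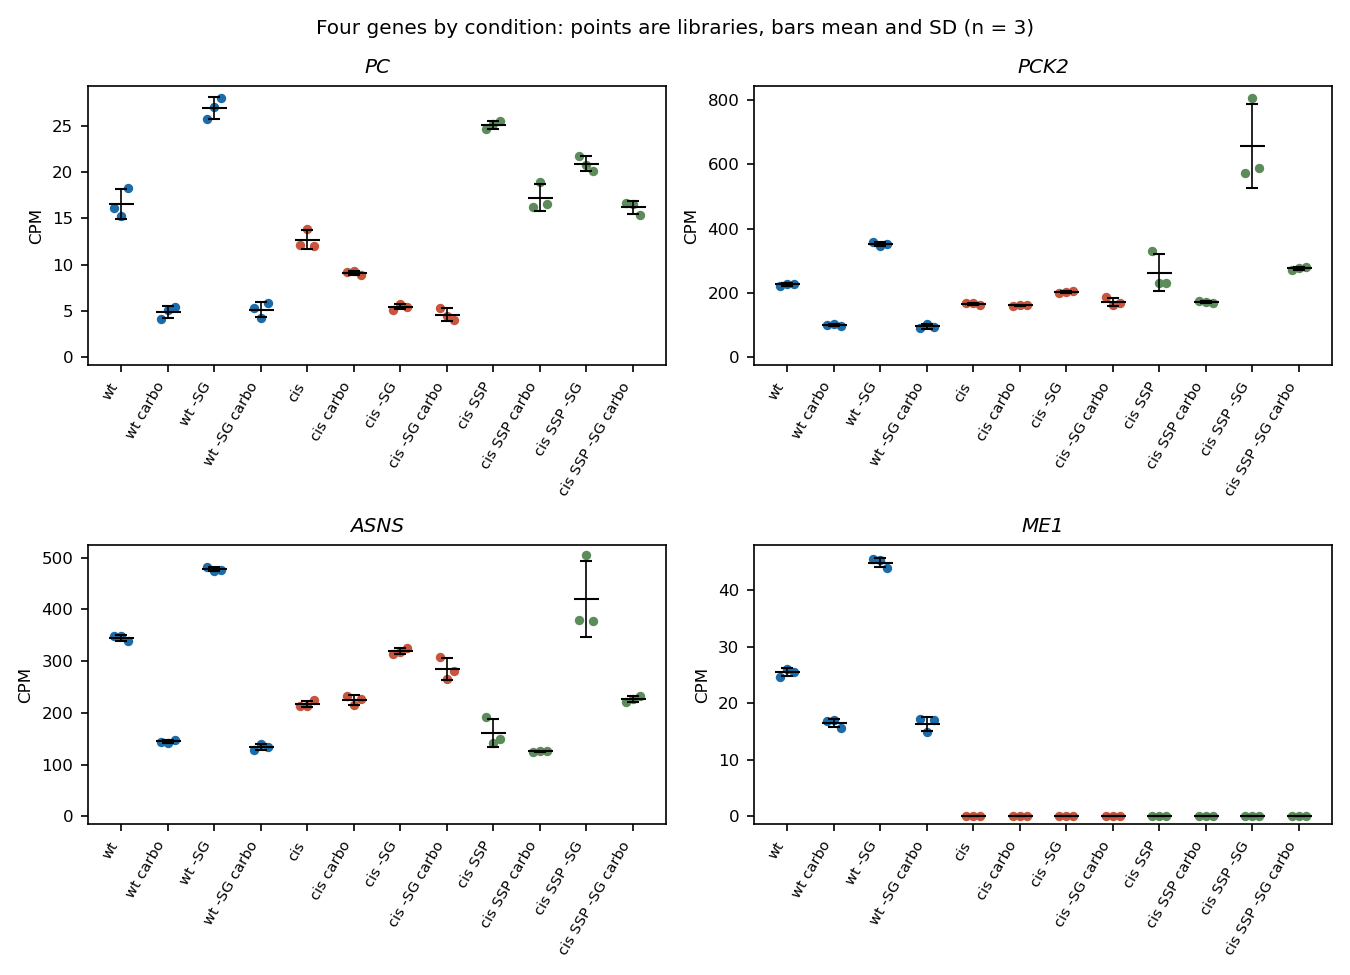
CPM of PC, PCK2, ASNS and ME1 in each library (points) of the 12 conditions, with mean and SD of 3 libraries, on linear axes from 0; wt is blue, cis red and cis SSP green. PC has a mean of 26.9 CPM in wt -SG and 5.45 CPM in cis -SG, and ME1 is at 0 in all cis conditions. PCK2 has its highest mean, 656.8 CPM, in cis SSP -SG, where library 2, which stood apart, is at 808.2 CPM.

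Withdrawal of serine and glycine raised ME1, PC, PCK2, ASNS and PDK2 in sensitive cells and lowered a larger number of genes of pyruvate oxidation and the cycle. In wt cells 5 genes rose and 19 fell among 35, with a median log2 fold change of -0.11. Of 14284 genes 49.2% were called, 24.1% higher and 25.1% lower. ME1 rose from 24.7, 26.1 and 25.6 CPM to 45.50, 45.35 and 44.02 (log2 fold change 0.83, SE 0.049, edgeR adjusted p = 2.8e-11). PC rose from 16.1, 15.2 and 18.3 to 25.67, 26.99 and 28.02 CPM (0.71, SE 0.072, adjusted p = 6.72e-08).

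PCK2 (chr14:24563262-24579807, GRCh37, plus strand) rose from 222.7, 227.7 and 229.3 CPM to 357.2, 346.8 and 353.8 (log2 fold change 0.65, SE 0.025, edgeR adjusted p = 4.54e-14). ASNS (chr7:97480989-97501854, minus strand), whose upstream sequence with the motif is shown above, rose from 348.3, 348.9 and 338.4 CPM to 482.2, 475.4 and 476.7 (0.48, SE 0.023, adjusted p = 8.06e-13). In these 4 genes every deprived library lay above every control library. The fifth, PDK2, rose by 0.28 (adjusted p = 0.00949), with overlapping groups. GOT1, which also holds the motif, was at -0.02 (adjusted p = 0.656).

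The kinases PDK1 and PDK3 fell most in wt cells. PDK1 went from 51.6, 51.9 and 53.4 CPM to 28.12, 29.04 and 27.44 (log2 fold change -0.88, SE 0.047, edgeR adjusted p = 6.32e-12), and PDK3 fell by 0.78 on the log2 scale (SE 0.096, adjusted p = 8.95e-07). MPC2 (-0.50), DLAT (-0.41), MPC1 (-0.39, adjusted p = 0.15 by DESeq2) and SDHD, an anchor of succinate dehydrogenase (-0.30), followed. Of the cycle genes 8 of 13 fell and none rose, while CS, DLST, SUCLG2, SDHA and SDHC did not pass the test. Of the other genes of the pathway 4 of 23 rose and 10 fell, with GPT, the cytosolic alanine aminotransferase, at 1.21, GPT2 at 0.36 and ACSS2 at -0.49. GPT rested on few reads, with 22, 12 and 13 counts in wt and 41, 44 and 23 in wt -SG.

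In resistant cells without serine and glycine every cycle gene fell. In cis cells 27 genes fell and 4 rose among 34, with a median log2 fold change of -0.43 against 0.01 over all genes. Of 14122 genes 75.0% were called, 37.6% higher and 37.4% lower. All 13 cycle genes and all 5 genes of the pyruvate dehydrogenase complex fell, and so did ACLY (-0.71).

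PC, which had risen in wt cells, fell from 12.14, 13.85 and 12.01 CPM to 5.15, 5.75 and 5.46 (log2 fold change -1.19, SE 0.103, edgeR adjusted p = 2.08e-14). CS, citrate synthase, the entry of the cycle, fell from 242.2, 243.8 and 265.0 CPM to 123.5, 130.5 and 126.3 (-0.96, SE 0.033, adjusted p = 8.29e-28). Another annotated gene overlaps it on the same strand, and how reads were split between them was not tested. DLAT (-0.89), MPC2 (-0.85), PDHB (-0.75) and SDHA (-0.75, with its pseudogene reads) were the next, all with non-overlapping groups. SUCLA2, already low in cis, fell from 35.1, 36.2 and 33.8 to 20.3, 21.5 and 20.9 CPM (-0.72).

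The 4 genes that rose in deprived cis cells were ASNS, GOT1, PCK2 and ME2. ASNS went from 213.9, 213.1 and 224.6 CPM to 314.3, 318.0 and 325.0 (log2 fold change 0.58, SE 0.030, edgeR adjusted p = 1.97e-22). GOT1, the cytosolic aspartate aminotransferase, went from 146.1, 143.8 and 150.6 to 202.5, 207.7 and 198.7 CPM (0.49, SE 0.031, adjusted p = 5.43e-19). PCK2 rose from 167.7, 169.7 and 163.4 to 200.3, 202.2 and 206.3 CPM (0.31, SE 0.031, adjusted p = 2.07e-12) and ME2 by 0.23 (adjusted p = 5.31e-09). Among the other pathway genes 5 of 24 rose and 14 fell, with GLUL at 1.2, GLS2 at 0.71, ACSS2 at -1.28 and OGDHL, an isoenzyme of OGDH, at -1.15.

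Both responses to deprivation differed in 27 of 35 genes, 5 with a response more positive in cis and 22 more negative, whereas 54.0% of 15418 genes were called, 27.1% more positive and 26.9% more negative. PC showed the largest difference (-1.89 in log2 units, SE 0.125, edgeR adjusted p = 1.16e-15), as it rose in wt and fell in cis cells. CS (-0.87, SE 0.046, adjusted p = 2.57e-18) and SDHA (-0.68, SE 0.048, adjusted p = 8.24e-15) came next. PCK2 rose less in cis than in wt (-0.33, SE 0.039, adjusted p = 4.59e-09) and ASNS slightly more (0.12, SE 0.037, adjusted p = 0.00793, but 0.0759 by DESeq2). In the positive direction the largest were PDK1 (0.92, SE 0.070, adjusted p = 4.15e-14), which was at 0.03 in cis cells (adjusted p = 0.612), GOT1 (0.53, SE 0.042, adjusted p = 1.98e-13) and MPC1 (0.52, SE 0.206, adjusted p = 0.0314, but 0.165 by DESeq2). In the list of other pathway genes 18 of 24 differed, 5 more positive in cis and 13 more negative.

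**Figure D5:**
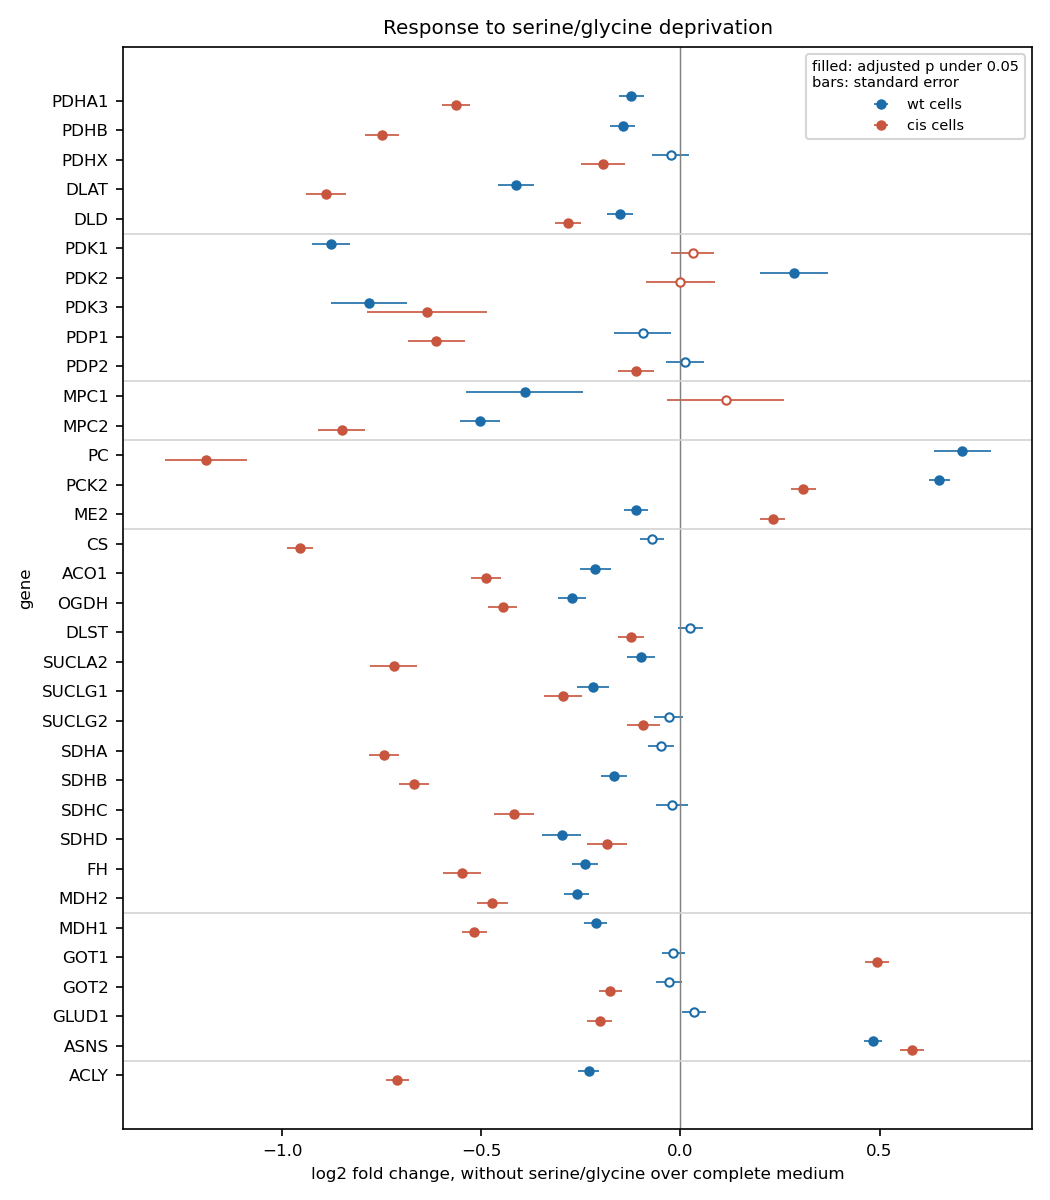
Log2 fold change without serine and glycine over complete medium for 34 genes in wt (blue) and cis (red) cells; bars are standard errors and filled points have an adjusted p under 0.05. PC is at 0.71 in wt and -1.19 in cis, ASNS (0.48 and 0.58) and PCK2 (0.65 and 0.31) are right of 0 in both, and the 13 cycle genes are all filled and left of 0 in cis.

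In deprived cis SSP cells none of 34 genes was called by edgeR, 4 had an unadjusted p under 0.05, and DESeq2 called 2. Of 13736 genes 0.0218% were called by edgeR, all of them higher (0.0218%) and 0.0% lower, and 907 had an unadjusted p under 0.05. DESeq2 called 103 of 15622 genes. ASNS had 191.5, 141.0 and 148.7 CPM in complete medium and 379.5, 505.7 and 377.7 CPM without serine and glycine (log2 fold change 1.38, SE 0.191, adjusted p = 0.187). PCK2 had 329.4, 229.5 and 232.0 CPM and then 573.4, 808.2 and 588.8 (1.31, SE 0.221, adjusted p = 0.255). In both genes every deprived library exceeded every control one, and the libraries that stood apart were the highest of their conditions.

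Without both of those libraries 19 genes were called, 7 higher and 12 lower, with 35.9% of all genes called. ASNS then rose by 1.38 (SE 0.032, edgeR adjusted p = 6.61e-23), PCK2 by 1.32 (SE 0.028, adjusted p = 8.84e-24) and GOT1 by 0.75 (SE 0.042, adjusted p = 6.89e-13) on the log2 scale, and CS fell by 0.27 and PC by 0.28 (adjusted p = 5.58e-08 and 0.00368). The fold changes of ASNS and PCK2 were thus nearly the same with and without them, while the standard errors were not. Both libraries deviated alike with length, 1 in each condition, so these like values do not measure the effect of either. Leaving out 1 library at a time gave 1.24 to 1.52 for ASNS and 1.14 to 1.49 for PCK2. Of the other genes of the pathway none of 24 was called by edgeR with all libraries, and 2 had an unadjusted p under 0.05, against 907 of all 13736 genes. DESeq2 on all libraries gave an adjusted p of 3.08e-07 for ASNS and 6.69e-05 for PCK2.

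The response of cis SSP cells to deprivation differed from that of cis cells in 6 of 34 genes, all more positive in cis SSP, while 17.1% of 14806 genes were called, 6.86% more positive and 10.3% more negative. They were PCK2 (1.01 in log2 units, SE 0.245, edgeR adjusted p = 0.0175), PC (0.92, SE 0.122, adjusted p = 7.11e-04), ASNS (0.81, SE 0.212, adjusted p = 0.0245), CS (0.71), SUCLA2 (0.62) and GLUD1 (0.41). Without both libraries that stood apart the count was 30, of which 28 were more positive and 2 (ME2 and MPC1) more negative, with 55.4% of all genes called, and without the cis SSP library alone it was 12 (3482 of 15134 over all genes). The differences of PCK2 (1.01), PC (0.91) and ASNS (0.79) were of like size without both. With 1 library left out at a time they ran from 0.82 to 1.22, 0.86 to 0.97 and 0.65 to 0.98. Among the other pathway genes 8 of 24 differed, 6 more positive and 2 more negative.

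In complete medium, cis SSP cells differed from cis cells in 10 of 34 genes, 7 higher and 3 lower, against 29.1% of 13714 genes, 15.8% higher and 13.3% lower. PC had 12.14, 13.85 and 12.01 CPM in cis and 24.7, 25.1 and 25.5 in cis SSP (log2 fold change 1.01, SE 0.106, edgeR adjusted p = 0.00115). PDK2 had 11.8, 11.6 and 11.8 CPM in cis and 24.4, 25.5 and 28.4 in cis SSP (1.18, SE 0.107, adjusted p = 6.53e-04). MPC1 (1.25, adjusted p = 0.00959), SDHD (0.86, adjusted p = 0.0186), FH (0.85, adjusted p = 0.00542) and PCK2 (0.68, adjusted p = 0.0213) were higher too.

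The genes lower in cis SSP were PDP1, from 25.54, 23 and 23.91 CPM in cis to 6.86, 11.37 and 11.95 (log2 fold change -1.23, SE 0.219, edgeR adjusted p = 0.00848), ACO1, the cytosolic aconitase that doubles as an iron sensor (-1.06, adjusted p = 7.78e-04), and PDK3 (-0.74, adjusted p = 0.012). Among the genes within 5 Mb of PDP1, 18 of 38 were lower and 3 higher (median -0.55), within 5 Mb of PCK2 30 of 91 were higher and 4 lower (0.40), and within 5 Mb of PDK2 31 of 94 were higher and 5 lower (0.34). Their part in these differences was not tested. ASNS was at -0.42 (adjusted p = 0.06, and 0.026 by DESeq2). Without the library of cis SSP that stood apart 26 genes were called, 14 higher and 12 lower, as were 65.4% of all genes. PDK2 was then at 1.24, PC at 1.04, MPC1 at 0.99, SDHD at 0.63, PCK2 at 0.51 (its neighbours at 0.41), ASNS at -0.54 (adjusted p = 1.42e-15) and PDP1 at -1.0. Over the 34 genes the difference followed transcript length (Spearman rho -0.51, and -0.40 without that library). When library 1 or 2 of cis was left out instead, 5 genes were called, and over all genes 2064 of 14226 and 1995 of 13955.

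In this comparison ME1 stayed at no more than 1 count per library, and SUCLA2 at 35.3, 35.1 and 32.7 CPM in cis SSP was as low as in cis (-0.005, adjusted p = 0.97). FH had a mean of 136.2 CPM in wt, 73.6 in cis and 130.2 in cis SSP, and PC of 16.5, 12.7 and 25.1 CPM, where the cis libraries serve in both comparisons. The cis SSP libraries of FH had 152.8, 121.3 and 116.5 CPM, the highest from library 1, which stood apart. Without that library FH was at 0.73 over cis on the log2 scale. In the list of other pathway genes 4 of 24 were higher and 3 lower. GLUL had 87, 127 and 120 counts in cis SSP (3.17 over cis, SE 0.183, edgeR adjusted p = 1.25e-04) and ACSS1 81, 67 and 86 (-2.13, SE 0.142, adjusted p = 2.23e-04).

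Carboplatin given without serine and glycine lowered PC, PCK2, ASNS and ME1 in wt cells, 4 of the 5 genes that deprivation alone had raised. The fifth, PDK2, rose by edgeR but did not pass the test by DESeq2 (adjusted p = 0.0733). These 5 genes were picked as high in the wt -SG libraries, which are also the baseline here, so both comparisons are not independent. Against wt -SG, 18 genes fell and 3 rose among 35, while 68.9% of 14467 genes were called, 34.3% higher and 34.6% lower. PC fell from 25.67, 26.99 and 28.02 CPM to 5.34, 4.29 and 5.80 (log2 fold change -2.36, SE 0.107, edgeR adjusted p = 8.34e-08). PCK2 fell from 357.2, 346.8 and 353.8 CPM to 90.8, 103.1 and 93.2 (-1.85, SE 0.062, adjusted p = 1.29e-08). The values with carboplatin lay close to those of wt carbo in complete medium for both genes.

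ASNS fell from 482.2, 475.4 and 476.7 CPM to 127.3, 139.5 and 134.5 (log2 fold change -1.81, SE 0.055, edgeR adjusted p = 8.02e-09), and ME1 from 45.50, 45.35 and 44.02 to 17.19, 15 and 17.02 (-1.43, SE 0.073, adjusted p = 1.74e-07). SUCLG2 (-1.21) and MPC1 (-0.83) fell as well, and MPC2 (0.29), PDK2 (0.26) and SDHA (0.25) rose. ME3 had 8, 5 and 4 counts in wt -SG carbo and 0 in each wt -SG library, at least 2.24-fold higher against the floor of 3 counts. It was below the filter and not tested. Without library 2 of wt -SG carbo, whose deviation followed length, 25 genes were called, 5 higher and 20 lower, and 73.3% of all genes, with PC at -2.23, PCK2 at -1.91, ASNS at -1.84, ME1 at -1.36 and PDK2 at 0.29. Of the other genes of the pathway 12 of 24 fell and 6 rose, with GPT2, the mitochondrial alanine aminotransferase, at -1.08 and OGDHL at -1.22.

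In deprived cis cells carboplatin called 9 of 34 genes, 2 higher and 7 lower, while 22.5% of 14476 genes were called, 10.9% higher and 11.6% lower. The falls were small: ME2 (log2 fold change -0.25, SE 0.034, edgeR adjusted p = 2.22e-04), PDK1 (-0.23), PDHA1 (-0.19), GOT2 (-0.18), GLUD1 (-0.16), PCK2 (-0.15, adjusted p = 0.00406) and SUCLG2 (-0.15). PDP2 rose by 0.41 (SE 0.047, adjusted p = 6.05e-05), from 65.1, 59.7 and 58.4 to 79.5, 72.9 and 75.9 CPM, and SDHA by 0.19 with overlapping groups (adjusted p = 0.0751 by DESeq2). PC was at the low end already (-0.16, adjusted p = 0.404) and ASNS was at -0.07 (adjusted p = 0.0939). Libraries 2 and 3 of cis -SG carbo had a larger share of reads on no gene than all others (up to 17.9%, against at most 9.31%). Without both of them only library 1 was left in that condition. PDHA1 was then at -0.09, GLUD1 at -0.105 and PCK2 at -0.11, nearer to 0, and PDK1 at -0.34 and SDHA at 0.26, further from it. Library 1 had the largest deviation of its condition (0.151), so these values do not measure the effect of the reads on no gene. Leaving out library 1 of cis -SG carbo gave 15 genes (5224 of 15050 over all genes), and leaving out library 3 gave 5 (1666 of 14700). Among the other pathway genes 2 of 24 rose and 2 fell.

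In deprived cis SSP cells PCK2 was the only 1 of 34 genes called under carboplatin, against 1.47% of 13541 genes, 1.17% higher and 0.295% lower. It fell from 573.4, 808.2 and 588.8 CPM to 270.6, 278.9 and 280.0 (log2 fold change -1.25, SE 0.167, edgeR adjusted p = 0.0277). ASNS went from 379.5, 505.7 and 377.7 to 220.4, 227.0 and 232.1 CPM (-0.90, SE 0.151, adjusted p = 0.0554), with no overlap, and PC was at -0.37 (adjusted p = 0.161). Without the library of cis SSP -SG that stood apart 12 genes were called, 3 higher and 9 lower, and 41.1% of all genes. PCK2 was then at -1.05 (adjusted p = 2.36e-16), ASNS at -0.72 (8.56e-14) and GOT1 at -0.32 (1.8e-06), and PDP2 at 0.45 (6.97e-08). With any of the other 5 libraries left out instead, none of the 34 was called, and over all 13722 to 13821 genes 0 to 4 were. Over the 34 genes the change with all libraries had a Spearman rho of 0.69 with transcript length, against 0.31 over all genes. In the list of other pathway genes GPT2 alone was called, at -0.71.

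PDP2 rose with carboplatin in cis cells in both media and, once the libraries that stood apart were left out, in cis SSP cells in both media, whereas in wt cells it was at 0.08 (edgeR, adjusted p = 0.0608) in complete medium and 0.04 (adjusted p = 0.781) without serine and glycine. The last value rested on library 2 of wt -SG carbo, with 63.09, 44.69 and 60.37 CPM against 53.8, 55.56 and 57.78 in wt -SG, and without that library PDP2 rose by 0.18 on the log2 scale (SE 0.050, adjusted p = 0.00411). The difference between lines was called in complete medium (0.35 in log2 units, cis response minus wt response, SE 0.057, adjusted p = 3.03e-07). In deprived cells it was not tested.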

How the data were processed

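RNA-seq libraries were made for 12 conditions, 3 each (36 in all), and sequenced as single reads. Reads were mapped by the authors to the GRCh37.p13 assembly (STAR), and HTSeq counted those on exons of GENCODE release 19, and the deposited table holds raw counts per Ensembl gene, with no normalisation. The 3 rows that name no gene were set aside (4.21 to 17.9% of reads fell on no feature). Symbols for 43521 of 57820 genes came from GENCODE release 44 lifted to GRCh37. The labels number no replicates, so libraries were numbered in accession order within a condition.

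Each comparison was fitted on its own libraries alone with edgeR 4.0.16 in R 4.3.3 (TMM normalisation, filterByExpr, robust quasi-likelihood F test across all genes passing the filter, Benjamini-Hochberg adjusted p under 0.05), and differences between responses as interaction terms. This gave 14 tests. Standard errors are on the log2 scale, and CPM values use TMM library sizes. For ME1 and ME3, with groups at 0, a fold is a lower bound against 3 counts per library. Length is that of the canonical transcript, and neighbours are tested genes within 5 Mb. The fit was tested on simulated counts. DESeq2 1.42.0, DESeq2 size factors, total counts without TMM, no filter, 1 fit over all 36 libraries, and leaving out each library were tried as alternatives, and leaving out the libraries that stood apart, or libraries 2 and 3 of cis -SG carbo, was added after seeing the data. Promoter sequences were read from a RefSeq table. Counting error sets the precision of low genes: MPC1 had as few as 20 counts.

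The genes and the lists were chosen with earlier results of these data known. Named with full values were ASNS, PCK2 and PC in every comparison and up to 6 called genes per direction by size of change (3 for differences between responses), and of the other genes of the pathway up to 3 per direction. The isocitrate dehydrogenases were left out, and 1 gene of the list of other pathway genes is not reported here by name. Python 3.11.15 with pandas 2.3.3, scipy 1.17.1 and matplotlib 3.10.9 served for tables and plots.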

Additional observations from a re-analysis of the deposited data

Results flagged for a closer look

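The responses of sensitive and resistant cells differed by a test of the difference itself. For carboplatin in complete medium, 27 genes differed between cis and wt, with ASNS at 1.32, PC at 1.30, PCK2 at 1.155 and PDK2 at -0.71 in log2 units (cis response minus wt response). For serine and glycine withdrawal, 27 genes differed as well. PDK1 was at 0.92, GOT1 at 0.53, MPC1 at 0.52 and ASNS at 0.115 (both past the threshold by edgeR and not by DESeq2), and PC was at -1.885, CS at -0.87, SDHA at -0.68 and PCK2 at -0.33. Between cis SSP and cis cells 6 genes differed in their response to withdrawal, among them PCK2 at 1.01, PC at 0.92 and ASNS at 0.81 (cis SSP response minus cis response). Both tests of cis against wt use the same untreated libraries, and the last uses library 1 of cis SSP and library 2 of cis SSP -SG, which stood apart.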

How the results depend on the processing

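No called log2 fold change of a gene named with full values changed sign under the alternatives run. Counts of called genes that moved by over 1.5 times were as follows. A fit over all 36 libraries called 26 genes between cis SSP and cis (10 in the separate fit), 1 for carboplatin in cis (13), 12 in cis SSP (1), 4 in cis -SG (9) and 9 in cis SSP -SG (1), 11 for withdrawal in wt (24) and 7 in cis SSP (0), 13 for the difference of carboplatin responses (27), and 21 for that of withdrawal between cis SSP and cis (6). In the same order, that fit called 7979, 401, 3090, 1141, 2860, 2821, 1530, 5240 and 5027 of all 16677 genes, so the background moved too. DESeq2 called 6 for carboplatin in cis, 3 in cis SSP and 2 in cis SSP -SG, 2 for withdrawal in cis SSP and 11 for the difference of withdrawal responses between cis SSP and cis. Over all genes it called 1346 of 11731, 723 of 16480, 575 of 15084, 103 of 15622 and 2974 of 17515. For carboplatin in cis SSP -SG, DESeq2 size factors, total counts without TMM and no filter each gave 2, and without a filter carboplatin in cis SSP gave 0. Over all genes these settings called 199 of 13541, 197 of 13541, 227 of 28210 and 342 of 28738. Leaving out 1 library gave 5 to 26 genes between cis SSP and cis, 8 to 10 for carboplatin in cis, 0 to 17 in cis SSP, 5 to 15 in cis -SG, 0 to 12 in cis SSP -SG, 0 to 0 for withdrawal in cis SSP, and 4 to 12 for its difference between cis SSP and cis. Counts over all 13541 to 15192 genes tested ran, in the same order, from 1995 to 9262, 1755 to 2554, 9 to 5835, 1666 to 5224, 0 to 5679, 0 to 0 and 1829 to 3482. Leaving out both libraries that stood apart gave 19 for withdrawal in cis SSP and 30 for that difference. Apart from the settings that leave out libraries, the cause was not tested. No paired analysis was possible because the labels give no replicate numbers within a condition. Depth limits MPC1, PDK3 and GPT, and at 0 counts ME1 can be given only as a bound.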
